A study of Mus musculus with 12 samples.

Results

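C3, C4b, C2, Cfb, Cfp, C1ra, Serping1, C3ar1 and C5ar1 are 9 genes of the complement system outside the C1q subunits. They were taken by gene symbol from a table of 48440 mouse genes, and all 9 passed the filter on low counts that kept 16292 genes for testing. The RNA sequenced was that of bone marrow-derived macrophages of the mouse, which are grown from marrow precursors in culture. The libraries form 6 groups of 2: CKO untreated, WT untreated, CKO with IFN-γ, WT with IFN-γ, CKO with IL-4 and WT with IL-4. IFN-γ, an activating cytokine of T and NK cells, was given at 100 U/mL, and IL-4, a cytokine of type 2 immunity, at 20 ng/mL, each for 24 h. The labels give the genotype as CKO or WT and name neither the allele nor what drives the deletion, while the title of the series points to the transcription factor IRF8. Nothing in them says that a group's libraries are from separate animals, so the p-values below measure library-to-library spread, part of which could be technical.

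Complement is a cascade of plasma proteins that tags microbes and dead cells, draws in leukocytes and lyses membranes. The classical and lectin pathways cut C4 and C2, the alternative pathway uses factor B and is stabilised by properdin, and all of them meet at the cleavage of C3. The liver makes most plasma complement, and macrophages make several components locally and carry receptors for the cleavage products C3a and C5a.

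Levels are library-scaled counts (CPM, scaled by the TMM method), and changes are log2 fold changes ± SE from edgeR's quasi-likelihood F test, with p-values adjusted by Benjamini-Hochberg over the 16292 genes and called at 0.05. Library totals ran from 21287725 to 32717379 counts. In untreated CKO library 1 the mitochondrial share of counts was unlike the rest, at 1.52% (95% Wilson interval 1.512 to 1.522), while the 11 remaining libraries had 2.12% to 3.25%. Irf8 was higher in the libraries labelled CKO, at 293 and 248 CPM in untreated CKO libraries, against 90.9 and 91.3 CPM in untreated WT libraries. That goes against loss of the full transcript, gene-level counts cannot show whether single exons are missing, and CKO and WT below mean the libraries so labelled. All 12 macrophage markers on the list had counts in every group, among them Adgre1, Csf1r and Cd68, while Lyz2, the macrophage lysozyme gene, lay at 12.6 to 28.0 CPM in CKO libraries, against 5845 to 11860 CPM in WT libraries. The 14 neutrophil markers summed to 203 to 353 CPM in untreated CKO libraries, against 61.1 to 70.6 CPM in untreated WT libraries, and the 10 monocyte markers to 676 to 747 CPM in untreated CKO libraries, against 297 to 313 CPM in untreated WT libraries. The 10 T and NK cell markers summed to 38.9 to 107 CPM in CKO libraries, against 101 to 209 CPM in WT libraries. Those sums came chiefly from Il7r and Cd4, while Cd3e, Cd3g and Ncr1 had no count in any library. By group mean, Il7r was lower in CKO in each treatment (26.5 CPM against 109.6 CPM in WT untreated). Cd4 went the other way, higher in CKO in each treatment (16.6 CPM against 2.78 CPM in WT untreated). The 9 B cell markers summed to 21.6 to 39.5 CPM in CKO libraries, against 30.5 to 39.6 CPM in WT libraries, chiefly from Ighm and Cd22. The 9 mast cell and basophil markers summed to at most 0.901 CPM, with Mcpt4, Tpsb2 and Fcer1a at 0 counts in every library, and the 11 stromal markers to at most 2.6 CPM, with Lum at 0 counts. In bulk samples, fewer cells of a type and less RNA per cell cannot be told apart.

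C3, the component on which all complement pathways converge, differed between all 6 groups. C3 (ENSMUSG00000024164.15) lies on GRCm38 chromosome 17, 57203970 to 57228136, on the minus strand. It stood at 41.4 and 35.9 CPM in untreated CKO libraries, against 10.3 and 9.96 CPM in untreated WT libraries. With IFN-γ it stood at 767.7 and 691.3 CPM in CKO libraries, against 63.2 and 73.9 CPM in WT libraries. With IL-4 it stood at 98.9 and 92.5 CPM in CKO libraries, against 25.7 and 25.2 CPM in WT libraries. No pair of groups overlapped, and the order from high to low was CKO with IFN-γ, CKO with IL-4, WT with IFN-γ, CKO untreated, WT with IL-4 and WT untreated. IL-4-treated CKO libraries held more C3 RNA than IFN-γ-treated WT libraries.

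The genotype difference in C3 was 1.93 ± 0.12 on the log2 scale without cytokine (3.82-fold, edgeR adjusted p = 2.79e-06) and 1.91 ± 0.11 with IL-4 (3.76-fold, edgeR adjusted p = 7.59e-06). With IFN-γ it was 3.41 ± 0.12 (10.6-fold, edgeR adjusted p = 2.39e-08). IFN-γ raised C3 by 4.24 ± 0.12 in CKO cells (edgeR adjusted p = 2.72e-10) and by 2.76 ± 0.12 in WT cells (edgeR adjusted p = 8.33e-09), all on the log2 scale. The C3 response to IFN-γ was 1.48 ± 0.16 larger in CKO cells on the log2 scale (2.79-fold, edgeR adjusted p = 0.000726). IL-4 raised C3 by 1.31 ± 0.11 in CKO cells (edgeR adjusted p = 8.24e-06) and by 1.33 ± 0.12 in WT cells (edgeR adjusted p = 1.43e-05), and the difference between these responses did not pass the test (−0.02 ± 0.16, edgeR adjusted p = 0.986). Without untreated CKO library 1, the C3 values were 1.84 for untreated CKO minus WT, 4.32 for IFN-γ in CKO, 1.405 for IL-4 in CKO and 1.555 for the difference in IFN-γ response. The IFN-γ and the IL-4 comparisons of a genotype share their untreated libraries.

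**Figure D1:**
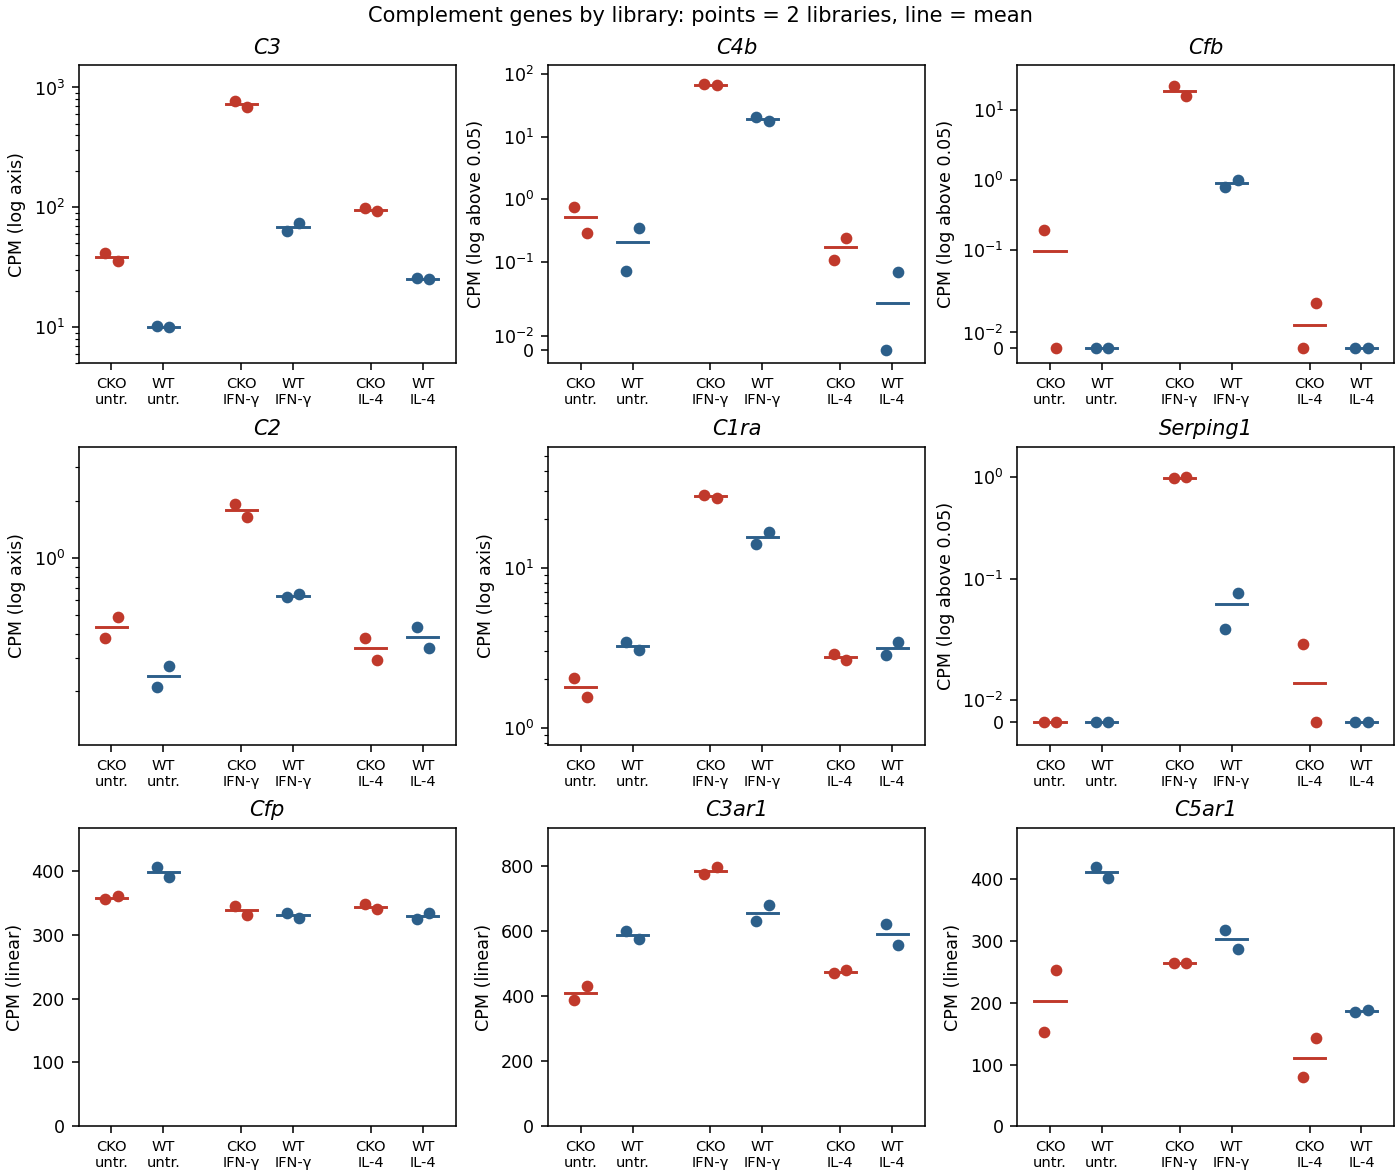
TMM-scaled CPM of the 9 complement genes, 1 panel per gene, with each library as a point and the group mean as a line, CKO left of WT within each treatment, and a log, mixed or linear vertical axis as labelled. C3 is highest in CKO with IFN-γ at 691.3 to 767.7 CPM, C4b, Cfb and Serping1 are near 0 outside the IFN-γ groups, and Cfp lies between 324.7 and 406.1 CPM in every library.

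The bases before the start of C3 are shown because C3 moved with both cytokines and with genotype, beside those of Cfp, which moved least, and C3ar1. Each window holds the 250 bases before the RefSeq start on GRCm38.p6, 5′ to 3′ on the minus strand, with capitals for a match to the C/EBP motif TTGCNNAA. The windows are chr17:57228137-57228386 for C3, chrX:20931556-20931805 for Cfp and chr6:122856158-122856407 for C3ar1.
C3: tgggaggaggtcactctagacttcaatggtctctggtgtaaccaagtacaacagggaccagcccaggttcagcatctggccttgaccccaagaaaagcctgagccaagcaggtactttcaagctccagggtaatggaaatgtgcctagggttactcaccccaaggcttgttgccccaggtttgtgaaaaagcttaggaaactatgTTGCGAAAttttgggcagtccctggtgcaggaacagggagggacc
Cfp: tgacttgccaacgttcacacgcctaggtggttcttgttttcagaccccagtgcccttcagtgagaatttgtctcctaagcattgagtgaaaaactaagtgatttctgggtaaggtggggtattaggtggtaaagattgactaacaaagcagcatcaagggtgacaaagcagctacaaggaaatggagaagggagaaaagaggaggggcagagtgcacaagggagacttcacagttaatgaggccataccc
C3ar1: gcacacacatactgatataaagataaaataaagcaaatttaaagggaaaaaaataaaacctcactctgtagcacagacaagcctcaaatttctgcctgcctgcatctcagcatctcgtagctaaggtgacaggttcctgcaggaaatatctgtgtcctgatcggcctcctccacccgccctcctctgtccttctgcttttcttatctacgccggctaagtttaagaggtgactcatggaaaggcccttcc
Of the 9 genes, 5 had a window in the RefSeq table, C3, Cfp, C1ra, C3ar1 and C5ar1, and C4b, C2, Cfb and Serping1 are named only. Windows of 250 bases before to 50 after the start were searched on both strands for 3 motifs, and each was also counted in all 32851 windows of the table. The core of the interferon element ISRE, GAAA and GAAA with NN between them, was in 3.44% of windows. The ETS-IRF composite, GGAA and GAAA with NN between them, was in 2.72% of windows, and the C/EBP letters in 10.8%. The C3 window held 1 match, the C/EBP letters TTGCGAAA beginning 45 bases before the start. The C1ra window held 1 match, C/EBP letters on the minus strand, TTATGCAA, beginning 16 bases after the start. The windows of Cfp, C3ar1 and C5ar1 held none of the 3. For C1ra and C5ar1 the RefSeq start lies inside the gene span given below, so most of each window is within that span. The C/EBP motif was added after the C3 window was read, so its match in C3 was known in advance. That match cannot be weighed against the 10.8% or against the windows without one. A match is a description of letters and not of binding.

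C4b encodes complement C4, whose larger fragment forms the classical C3 convertase, and its RNA was nearly absent outside the IFN-γ groups. C4b (ENSMUSG00000073418.4) lies on GRCm38 chromosome 17, 34728380 to 34743882, on the minus strand. With IFN-γ, C4b stood at 70.3 and 67.4 CPM in CKO libraries, against 20.6 and 17.8 CPM in WT libraries. Without cytokine C4b stood at 0.759 and 0.288 CPM in CKO libraries, against 0.0699 and 0.341 CPM in WT libraries. With IL-4 the counts of C4b were 3 and 8 in CKO libraries, against 0 and 2 in WT libraries. The genotypes were apart with IFN-γ and overlapped without cytokine, where their difference was 1.25 ± 0.63 (edgeR adjusted p = 0.191). That difference ran from 0.48 without untreated CKO library 1 to 2.75 without untreated WT library 2, and it passed the test without untreated CKO library 2 (1.88, edgeR adjusted p = 0.0363). IFN-γ raised C4b by 7.10 ± 0.34 in CKO cells (edgeR adjusted p = 3e-08) and by 6.50 ± 0.39 in WT cells (edgeR adjusted p = 2.48e-07), on the log2 scale. The low untreated counts set these sizes. The rise in CKO cells was 7.86 without untreated CKO library 1 and 6.49 without library 2, and the rise in WT cells was 5.79 without untreated WT library 1 and 8.005 without library 2. With IL-4, C4b changed by −1.49 ± 0.64 in CKO cells (edgeR adjusted p = 0.12), and by −2.11 (edgeR adjusted p = 0.0228) without untreated CKO library 2. C4b was 1.84 ± 0.23 higher in CKO than in WT cells given IFN-γ (edgeR adjusted p = 0.000313). The difference between the IFN-γ responses did not pass the test (0.60 ± 0.74, edgeR adjusted p = 0.83), with untreated levels set by 30 counts of C4b over the CKO libraries and 12 over the WT libraries. Leaving out untreated WT library 2 turned it to −0.90 and leaving out untreated CKO library 2 to −0.03.

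C4b has a near-identical neighbour, C4a, and reads of the pair can be assigned to either, so the split of C4b values between them is uncertain. C4a stood at 10.9 CPM in CKO cells with IFN-γ, against 3.91 CPM in WT cells with IFN-γ (log2 fold change 1.47 ± 0.24, edgeR adjusted p = 0.0013). C4a and C4b were both higher in CKO cells given IFN-γ.

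Cfb encodes factor B, the protease of the alternative C3 convertase, and it was detected almost only with IFN-γ. Cfb (ENSMUSG00000090231.10) lies on GRCm38 chromosome 17, 34856374 to 34862518, on the minus strand. With IFN-γ its counts were 588 and 430 in CKO libraries (22.1 and 16.0 CPM), against 19 and 28 in WT libraries (0.787 and 1.01 CPM). Without cytokine its counts were 5 and 0 in CKO libraries, against 0 and 0 in WT libraries, and with IL-4 they were 0 and 1 in CKO libraries, against 0 and 0 in WT libraries. A count of 0 over both untreated WT libraries allows up to 0.0518 CPM (3 counts in the group), and such limits and intervals cover counting error only. Cfb was 4.39 ± 0.38 higher in CKO than in WT cells given IFN-γ on the log2 scale (21.02-fold, edgeR adjusted p = 7.15e-05), while DESeq2 gave 4.41 with an adjusted p of 0.0536. In WT cells IFN-γ raised Cfb at least 17.5-fold (edgeR adjusted p = 0.00188), and in CKO cells by 7.77 ± 0.52 on the log2 scale (edgeR adjusted p = 3.13e-06). The CKO value rests on the 5 counts of untreated CKO library 1. It was 6.61 without untreated CKO library 2, and without library 1 no untreated CKO count is left, so the rise is a bound, at least 220.0-fold. C4b, Cfb and Serping1 passed the low-count filter only through the IFN-γ libraries, so passing it already required them to be higher there.

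C2, the serine protease that partners C4, was low in every library. C2 (ENSMUSG00000024371.14) lies next to Cfb on GRCm38 chromosome 17, 34862604 to 34898265, on the minus strand. With IFN-γ, C2 stood at 1.92 and 1.64 CPM in CKO libraries, against 0.621 and 0.648 CPM in WT libraries. Without cytokine C2 stood at 0.380 and 0.490 CPM in CKO libraries, against 0.210 and 0.273 CPM in WT libraries, and with IL-4 at 0.381 and 0.293 CPM in CKO libraries, against 0.434 and 0.338 CPM in WT libraries. The IFN-γ groups were apart from each other and from all other groups, and the IL-4 groups overlapped each other. IFN-γ raised C2 by 2.002 ± 0.29 in CKO cells on the log2 scale (edgeR adjusted p = 0.000267), and the genotypes given IFN-γ differed by 1.48 ± 0.28 (edgeR adjusted p = 0.00367). That genotype difference was 1.34 (edgeR adjusted p = 0.0503) without IFN-γ CKO library 1. The rise of C2 with IFN-γ in WT cells (1.38 ± 0.37, edgeR adjusted p = 0.0177) failed the test when any of the 4 libraries compared was left out, untreated WT 1 or 2 or IFN-γ WT 1 or 2, with adjusted p from 0.0536 to 0.124, and with DESeq2 (adjusted p = 0.0958). The readthrough gene Gm20547 shares 79.5% of the exon bases of Cfb and 42.8% of those of C2 on the same strand, so counts of both are uncertain to that extent. Gm20547 itself held 0 to 5 counts per library.

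C1ra encodes C1r, the protease that starts the classical cascade within the C1 complex, and its direction between genotypes differed between treatments. C1ra (ENSMUSG00000055172.10) lies on GRCm38 chromosome 6, 124512405 to 124523443, on the plus strand. Without cytokine C1ra stood at 2.05 and 1.56 CPM in CKO libraries, against 3.43 and 3.04 CPM in WT libraries. With IFN-γ, C1ra stood at 28.5 and 27.2 CPM in CKO libraries, against 14.0 and 16.8 CPM in WT libraries. C1ra with IL-4 stood at 2.88 and 2.64 CPM in CKO libraries, against 2.85 and 3.45 CPM in WT libraries. CKO was below WT without cytokine, above it with IFN-γ, and overlapped it with IL-4.

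In numbers, C1ra differed by −0.85 ± 0.19 without cytokine (edgeR adjusted p = 0.0124) and by 0.85 ± 0.15 with IFN-γ (edgeR adjusted p = 0.00204), CKO minus WT on the log2 scale. The first of these was −0.76 (edgeR adjusted p = 0.0885) without untreated WT library 1 and −0.63 (edgeR adjusted p = 0.054) without untreated CKO library 2, and −1.04 (edgeR adjusted p = 0.0216) without untreated CKO library 1. IFN-γ raised C1ra by 3.96 ± 0.18 in CKO cells (edgeR adjusted p = 1.03e-08) and by 2.255 ± 0.17 in WT cells (edgeR adjusted p = 9.26e-07). The IFN-γ response was 1.705 ± 0.24 larger in CKO cells on the log2 scale (3.26-fold, edgeR adjusted p = 0.00352), and 1.87 (edgeR adjusted p = 0.00428) without untreated CKO library 1. With IL-4, C1ra rose by 0.62 ± 0.19 in CKO cells (edgeR adjusted p = 0.0377). That call was lost without untreated CKO library 2 (0.41, edgeR adjusted p = 0.19), IL-4 CKO library 1 (0.54, edgeR adjusted p = 0.132) or IL-4 CKO library 2 (0.69, edgeR adjusted p = 0.102), and with DESeq2 (adjusted p = 0.0558). In WT cells the change of C1ra with IL-4 was −0.03 ± 0.18 (edgeR adjusted p = 0.954). The neighbouring near-copy C1rb, which makes the split of C1ra reads uncertain, stood at 8.88 CPM in CKO cells with IFN-γ, against 4.63 CPM in WT cells with IFN-γ.

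Serping1, which encodes the C1 inhibitor that shuts off C1r and C1s, had counts in 5 of the 12 libraries. Serping1 (ENSMUSG00000023224.12) lies on GRCm38 chromosome 2, 84765387 to 84775444, on the minus strand. Its counts with IFN-γ were 26 and 27 in CKO libraries (0.978 and 1.004 CPM), against 1 and 2 in WT libraries. Both untreated groups and WT with IL-4 had 0 counts in each library, and CKO with IL-4 had 1 and 0. Between genotypes given IFN-γ the counting ratio of Serping1 was 17.2 (95% exact interval 5.56 to 85.8, edgeR adjusted p = 0.00237). IFN-γ raised it at least 20.2-fold in CKO cells (edgeR adjusted p = 0.000291), and in WT cells both groups lay at or under the floor, so no fold is given. Serping1 passed the low-count filter only through the CKO libraries given IFN-γ, so passing already required it to be higher there. Both of its p-values are conditional on that.

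Cfp encodes properdin, the stabiliser of the alternative C3 convertase, and it varied least among the 9 genes. Cfp (ENSMUSG00000001128.7) lies on GRCm38 chromosome X, 20925454 to 20931555, on the minus strand. Without cytokine Cfp stood at 355.5 and 360.2 CPM in CKO libraries, against 406.1 and 391.1 CPM in WT libraries. With IFN-γ, Cfp stood at 345.2 and 331.2 CPM in CKO libraries, against 333.9 and 326.5 CPM in WT libraries. Cfp with IL-4 stood at 348.1 and 340.0 CPM in CKO libraries, against 324.7 and 334.2 CPM in WT libraries. Untreated WT libraries were highest, and the 4 cytokine groups lay close together. In WT cells Cfp was 0.27 ± 0.08 lower with IFN-γ (log2 fold change −0.27, edgeR adjusted p = 0.03) and 0.275 ± 0.08 lower with IL-4 (log2 fold change −0.275, edgeR adjusted p = 0.0481). Both calls of Cfp failed when any 1 of the 4 WT libraries compared was left out (largest adjusted p = 0.18 for IFN-γ and 0.296 for IL-4), and with no filter on low counts (adjusted p = 0.12 and 0.116). CKO minus WT was −0.16 ± 0.08 untreated, 0.035 ± 0.08 with IFN-γ and 0.06 ± 0.08 with IL-4, with adjusted p of 0.203, 0.809 and 0.819 from edgeR.

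C3ar1 encodes the receptor for the C3a fragment and was well expressed in every group. C3ar1 (ENSMUSG00000040552.8) lies on GRCm38 chromosome 6, 122847138 to 122856161, on the minus strand. Without cytokine C3ar1 stood at 387.9 and 431.2 CPM in CKO libraries, against 602.4 and 575.3 CPM in WT libraries. With IFN-γ, C3ar1 stood at 775.7 and 798.1 CPM in CKO libraries, against 631.5 and 680.6 CPM in WT libraries. C3ar1 with IL-4 stood at 470.6 and 480.5 CPM in CKO libraries, against 621.5 and 559.5 CPM in WT libraries. CKO libraries were below WT libraries without cytokine and with IL-4 and above them with IFN-γ, with no overlap in any treatment. The untreated and IL-4 groups of WT overlapped.

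Untreated, C3ar1 differed by −0.52 ± 0.10 between CKO and WT on the log2 scale (edgeR adjusted p = 0.005), and by −0.44 (edgeR adjusted p = 0.0378) without untreated CKO library 1. With IFN-γ the difference in C3ar1 was 0.26 ± 0.10 (edgeR adjusted p = 0.0827) and with IL-4 −0.31 ± 0.10 (edgeR adjusted p = 0.127). Neither passed the test, and with only genes of mean CPM of at least 5 kept, the IFN-γ difference was 0.29 (edgeR adjusted p = 0.0436). IFN-γ raised C3ar1 by 0.94 ± 0.10 in CKO cells on the log2 scale (1.92-fold, edgeR adjusted p = 1.78e-05), against 0.16 ± 0.10 in WT cells (edgeR adjusted p = 0.297). The difference between the responses was 0.79 ± 0.14 (edgeR adjusted p = 0.0112). That call was lost without IFN-γ CKO library 1 (0.77, edgeR adjusted p = 0.0655), IFN-γ CKO library 2 (0.78, edgeR adjusted p = 0.0635) or untreated WT library 1 (0.76, edgeR adjusted p = 0.0555).

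**Figure D2:**
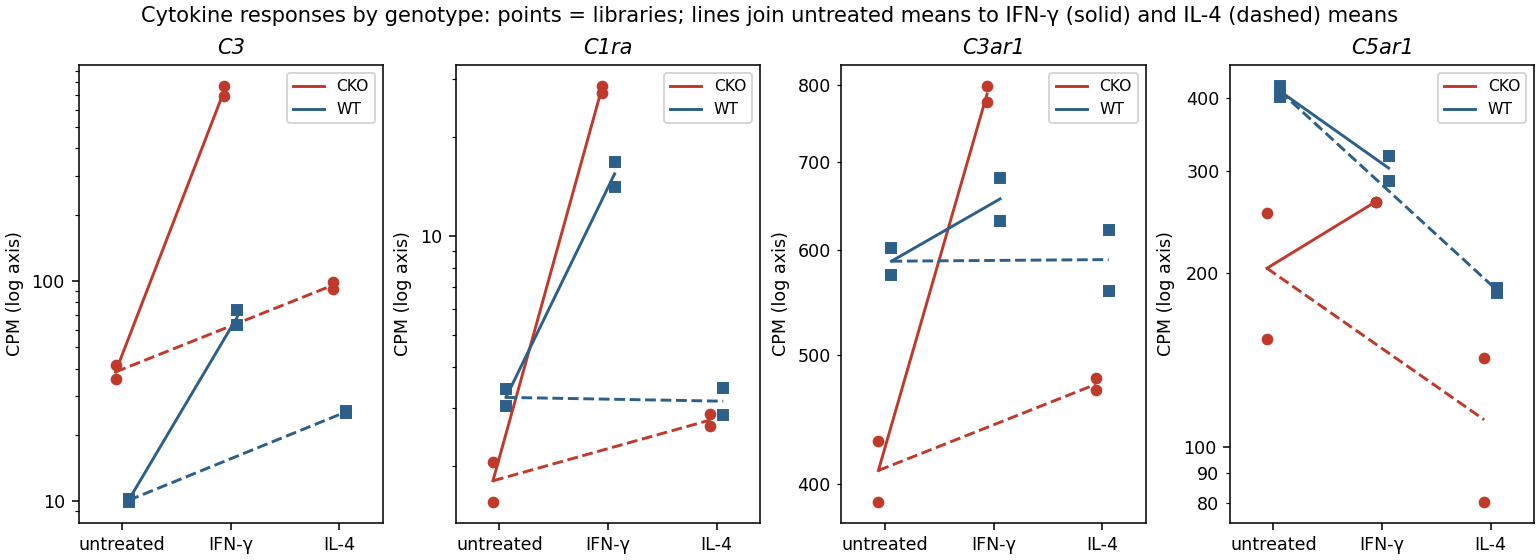
CPM on log axes for C3, C1ra, C3ar1 and C5ar1, with each library as a point and lines that join the untreated mean to the IFN-γ mean (solid) and to the IL-4 mean (dashed), CKO in red and WT in blue. The solid CKO lines of C3, C1ra and C3ar1 are steeper than the WT lines, by 1.48, 1.705 and 0.79 on the log2 scale.

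C5ar1 encodes the main receptor for the C5a fragment, and its libraries lay far apart in the untreated and IL-4 groups of CKO. C5ar1 (ENSMUSG00000049130.6) lies on GRCm38 chromosome 7, 16246743 to 16259540, on the minus strand. Without cytokine C5ar1 stood at 153.5 and 253.5 CPM in CKO libraries, against 420.3 and 402.8 CPM in WT libraries. With IFN-γ, C5ar1 stood at 265.0 and 265.2 CPM in CKO libraries, against 318.4 and 287.9 CPM in WT libraries. C5ar1 with IL-4 stood at 80.4 and 142.4 CPM in CKO libraries, against 184.7 and 187.9 CPM in WT libraries. CKO libraries were below WT libraries in each treatment, and IL-4 libraries were below untreated libraries of the same genotype.

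C5ar1 differed by −1.015 ± 0.26 between untreated CKO and WT cells on the log2 scale (edgeR adjusted p = 0.0233). That call was lost without untreated CKO library 1 (−0.69, edgeR adjusted p = 0.151), untreated WT library 1 (−0.98, edgeR adjusted p = 0.102) or untreated WT library 2 (−1.05, edgeR adjusted p = 0.0875). With IFN-γ and with IL-4 the genotype differences in C5ar1 were −0.19 ± 0.25 (edgeR adjusted p = 0.648) and −0.74 ± 0.26 (edgeR adjusted p = 0.193). The IL-4 difference passed the test without IL-4 CKO library 2 (−1.195, edgeR adjusted p = 0.0189), with no filter on low counts (−0.71, edgeR adjusted p = 1.12e-06) and with DESeq2 (adjusted p = 0.045). The change of C5ar1 with IFN-γ was 0.38 ± 0.25 in CKO cells (edgeR adjusted p = 0.312) and −0.44 ± 0.25 in WT cells (edgeR adjusted p = 0.261), and neither passed the test. With no filter both passed (edgeR adjusted p = 0.0114 and 0.00295), and the value in CKO cells was 0.78 (edgeR adjusted p = 0.0409) without untreated CKO library 2. With IL-4, C5ar1 changed by −0.87 ± 0.26 in CKO cells (edgeR adjusted p = 0.0341) and by −1.14 ± 0.26 in WT cells (edgeR adjusted p = 0.0154). The call in CKO cells was lost without IL-4 CKO library 1 (−0.54, edgeR adjusted p = 0.11) or untreated CKO library 2 (−0.48, edgeR adjusted p = 0.162), and was −1.20 (edgeR adjusted p = 0.00921) without untreated CKO library 1. The call in WT cells was lost without any 1 of the 4 WT libraries compared (adjusted p up to 0.0903).

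Counted together and read against all genes tested, the 9 genes were called as follows. Between untreated CKO and WT cells, 1 of the 9 was higher (C3) and 3 were lower (C1ra, C3ar1, C5ar1), where 8.6% of all tested genes were higher, 9.37% were lower and 18% were called in either direction. With IFN-γ, 6 of the 9 were higher in CKO cells (C3, C4b, C2, Cfb, C1ra, Serping1), where 10.4% of all tested genes were higher, 8.01% lower and 18.4% called. None was lower there by edgeR, by edgeR at an unadjusted p under 0.05 (0 genes) or by DESeq2 (0 genes), and of the 6 higher ones DESeq2 called 4, did not call Cfb and gave no adjusted p for Serping1. With IL-4, 1 of the 9 was higher in CKO cells (C3), where 1.41% of all tested genes were higher, 1.55% lower and 2.96% called. None was lower by edgeR, while 2 were at an unadjusted p under 0.05 (C3ar1 and C5ar1) and DESeq2 called 1 (C5ar1). Serping1 passed the low-count filter only through the CKO libraries given IFN-γ, so passing already required it to be higher there, and the count of 6 and the IFN-γ median below, which include it, support nothing about the 9 as a set. The medians over the genes with a value, genes at the floor taken at their bound, were 0.25 over 8 genes untreated, 1.48 over 9 with IFN-γ and −0.18 over 7 with IL-4. The medians over all tested genes lay between −0.01 and 0.02 in each of the 9 comparisons.

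Beside these genotype differences, markers of other myeloid cells also differed. Neutrophil markers summed higher in CKO libraries in each treatment, and monocyte markers without cytokine and with IFN-γ. The 14 neutrophil markers summed to 455 to 469 CPM in CKO with IFN-γ, against 95.9 to 107 CPM in WT with IFN-γ, and 11 of the 13 tested were called higher. The 10 monocyte markers summed to 517 to 519.5 CPM in CKO with IFN-γ, against 191.5 to 255.5 CPM in WT with IFN-γ, and 8 were called higher. With IL-4 the neutrophil sums were 197 to 232.5 CPM in CKO libraries, against 57.1 to 66.3 CPM in WT libraries. The monocyte sums with IL-4 overlapped, at 866 to 934 CPM in CKO libraries, against 622 to 918 CPM in WT libraries, and 5 of the 10 were called higher. The 10 dendritic cell markers summed to 9.26 to 11.4 CPM in CKO with IFN-γ, against 51.6 to 61.6 CPM in WT with IFN-γ, and 3 of the 7 tested were called lower. These sums came chiefly from Clec9a, at 5.99 CPM in CKO and 48.2 CPM in WT. Flt3, Zbtb46, Cd209a, Ccr7 and Siglech lay higher in CKO with IFN-γ, at low levels. With IL-4 the dendritic sums were 10.8 to 11.5 CPM in CKO libraries, against 8.14 to 9.07 CPM in WT libraries, and without cytokine they overlapped. The part of these markers in the complement values was not tested.

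IFN-γ against no cytokine called 7 of the 9 higher in CKO cells (all but Cfp and C5ar1), where 14.7% of all tested genes were higher, 11.9% lower and 26.6% called. None was lower in CKO cells by edgeR, at an unadjusted p under 0.05 (0 genes) or by DESeq2 (0 genes). In WT cells IFN-γ called 5 higher (C3, C4b, C2, Cfb, C1ra) and 1 lower (Cfp), where 12.4% of all tested genes were higher, 11.8% lower and 24.2% called. The member medians with bounds were 3.96 over 9 genes in CKO cells and 1.82 over 8 in WT cells. These medians, and the counts of 7 and 5 higher, include C4b and Cfb, and in CKO cells Serping1. Those genes passed the filter only through the IFN-γ libraries, so passing already required them to be higher there. The counts and the medians therefore support nothing about the 9 as a set. IL-4 called 2 of the 9 higher in CKO cells (C3, C1ra) and 1 lower (C5ar1), where 11.2% of all tested genes were higher, 11.3% lower and 22.5% called. In WT cells IL-4 called 1 higher (C3) and 2 lower (Cfp, C5ar1), where 6.64% of all tested genes were higher, 5.59% lower and 12.2% called. The member medians were −0.22 over 8 genes in CKO cells and −0.03 over 7 in WT cells.

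The IFN-γ response was larger in CKO than in WT cells for 3 of the 9 genes (C3, C1ra, C3ar1), where 2.07% of all tested genes had a larger response, 0.651% a smaller one and 2.72% either. None had a smaller response by edgeR, at an unadjusted p under 0.05 (0 genes) or by DESeq2 (0 genes). Cfb and Serping1 have no value here because a group lay at or under the floor, and the responses of C4b, C2, Cfp and C5ar1 did not pass the test. The IL-4 response was called for none of the 9 by edgeR or DESeq2, where 0.0246% of all tested genes had a larger response in CKO cells, 0.0123% a smaller one and 0.0368% either, and 1 of the 9 (C1ra) was at an unadjusted p under 0.05. With 2 libraries per group an exact permutation test of a single gene cannot go below p = 0.333, so each call rests on the fit across all genes.

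**Figure D3:**
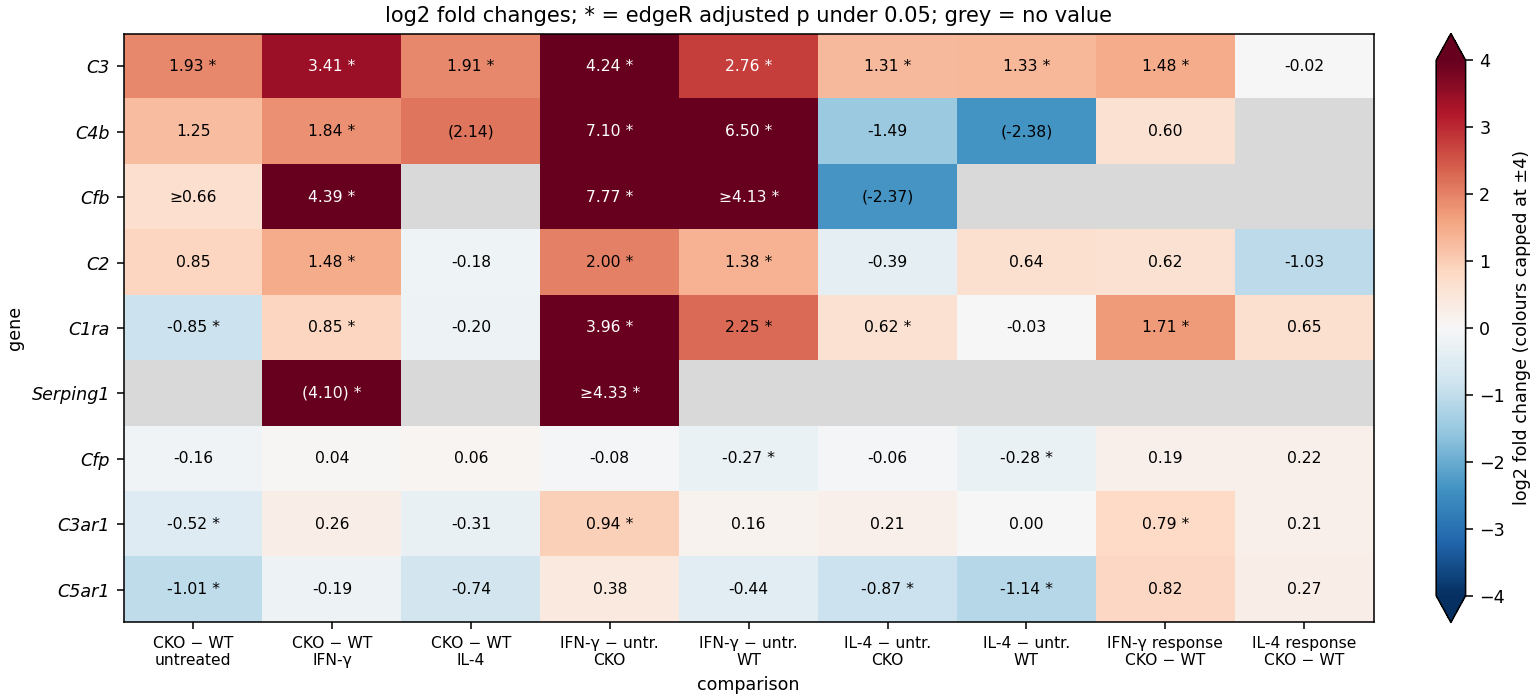
Log2 fold changes of the 9 genes in the 9 comparisons, CKO minus WT and cytokine minus untreated, coloured by size and direction, with an asterisk where the edgeR adjusted p is under 0.05, brackets for counting ratios, ≥ for bounds and grey for no value. C3 is called in 8 of the 9 comparisons, all but the difference in IL-4 response.

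Per kilobase of exon, Cfp had the highest mean of the 9 genes in each group. It averaged 190 to 230 CPM per kb across the 6 groups, C3ar1 95.1 to 183 CPM per kb and C5ar1 43.3 to 160 CPM per kb. C3 averaged 142 CPM per kb in CKO cells with IFN-γ, between C3ar1 at 183 and C5ar1 at 103 CPM per kb in the same cells, and lay at 1.94 CPM per kb in its lowest library, an untreated WT one. C4b averaged at most 12.1 CPM per kb, C1ra 9.34 and Serping1 0.426, each in CKO with IFN-γ. The libraries were made with a kit that captures coding RNA by probes, and its effect on levels between genes was not tested.

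A wider list of 48 other complement genes, of which 25 were tested, gives the setting. In untreated cells 3 were called higher and 6 lower in CKO, where 8.6% of all tested genes were higher and 9.37% lower. With IFN-γ 8 were higher and 5 lower, where 10.4% of all tested genes were higher and 8.01% lower. Fcnb is among the higher genes in both of these comparisons, and it had 0 to 8 counts in each WT library. The filter could keep Fcnb only through CKO libraries, so passing already required it to be higher there. Those counts of higher genes therefore support nothing about the list as a set. The 5 called with IL-4 were lower, where 1.55% of all tested genes were lower. The C1q genes, which encode the recognition subunits of C1, were lower in CKO cells in each treatment while C3 was higher. C1qb averaged 38.9 ± 15 CPM in untreated CKO libraries and 487 ± 21.5 CPM in untreated WT libraries (SD, n = 2 each), a log2 fold change of −3.65 ± 0.245 (edgeR adjusted p = 1.25e-05). Between IFN-γ-treated CKO and WT cells, C1qc fell by 1.33 on the log2 scale (edgeR adjusted p = 0.000487) and C1qa had a log2 fold change of −2.305 (edgeR adjusted p = 0.00054). Fcna, a ficolin that starts the lectin pathway, stood at 44.5 CPM in CKO cells with IFN-γ, against 16.2 CPM in WT cells with IFN-γ (log2 fold change 1.46 ± 0.17, edgeR adjusted p = 0.000166).

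IFN-γ called 10 of the 25 higher and 2 lower in CKO cells, where 14.7% of all tested genes were higher and 11.9% lower. In WT cells it called 10 higher and 3 lower, where 12.4% of all tested genes were higher and 11.8% lower. Both counts of higher genes include C1s1, which had 0 or 1 count in each library outside IFN-γ. The filter could keep C1s1 only through the IFN-γ libraries. C1qb rose by 3.98 ± 0.25 in CKO cells (edgeR adjusted p = 4.62e-07) and C1rb by 4.02 ± 0.30 (edgeR adjusted p = 9.95e-07). Colec12, a scavenger collectin, stood at 45.2 CPM in WT cells with IFN-γ, against 168 CPM in untreated WT cells (log2 fold change −1.895, edgeR adjusted p = 1.56e-07). IL-4 called 4 higher and 7 lower in CKO cells, where 11.2% of all tested genes were higher and 11.3% lower. In WT cells it called 2 higher and 6 lower, where 6.64% of all tested genes were higher and 5.59% lower. Itgax, the alpha chain of complement receptor CR4, rose by 2.89 ± 0.28 in CKO cells (edgeR adjusted p = 5.07e-05) and by 2.59 ± 0.27 in WT cells (edgeR adjusted p = 0.000127). C5ar2, the second receptor for C5a, stood at 6.43 CPM in CKO cells with IL-4, against 11.97 CPM in untreated CKO cells (log2 fold change −0.90, edgeR adjusted p = 0.00301). The IFN-γ response was larger in CKO cells for 3 of the 25, where 2.07% of all tested genes had a larger response. They were C1qb (2.34 ± 0.32, edgeR adjusted p = 0.00356), Itgam, the alpha chain of CR3 (0.95 ± 0.18, edgeR adjusted p = 0.016), and C1qa (1.91 ± 0.42, edgeR adjusted p = 0.0429). C1qa was no longer called in 7 of the 8 fits that left out 1 library, and Itgam in 4.

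**Figure D4:**
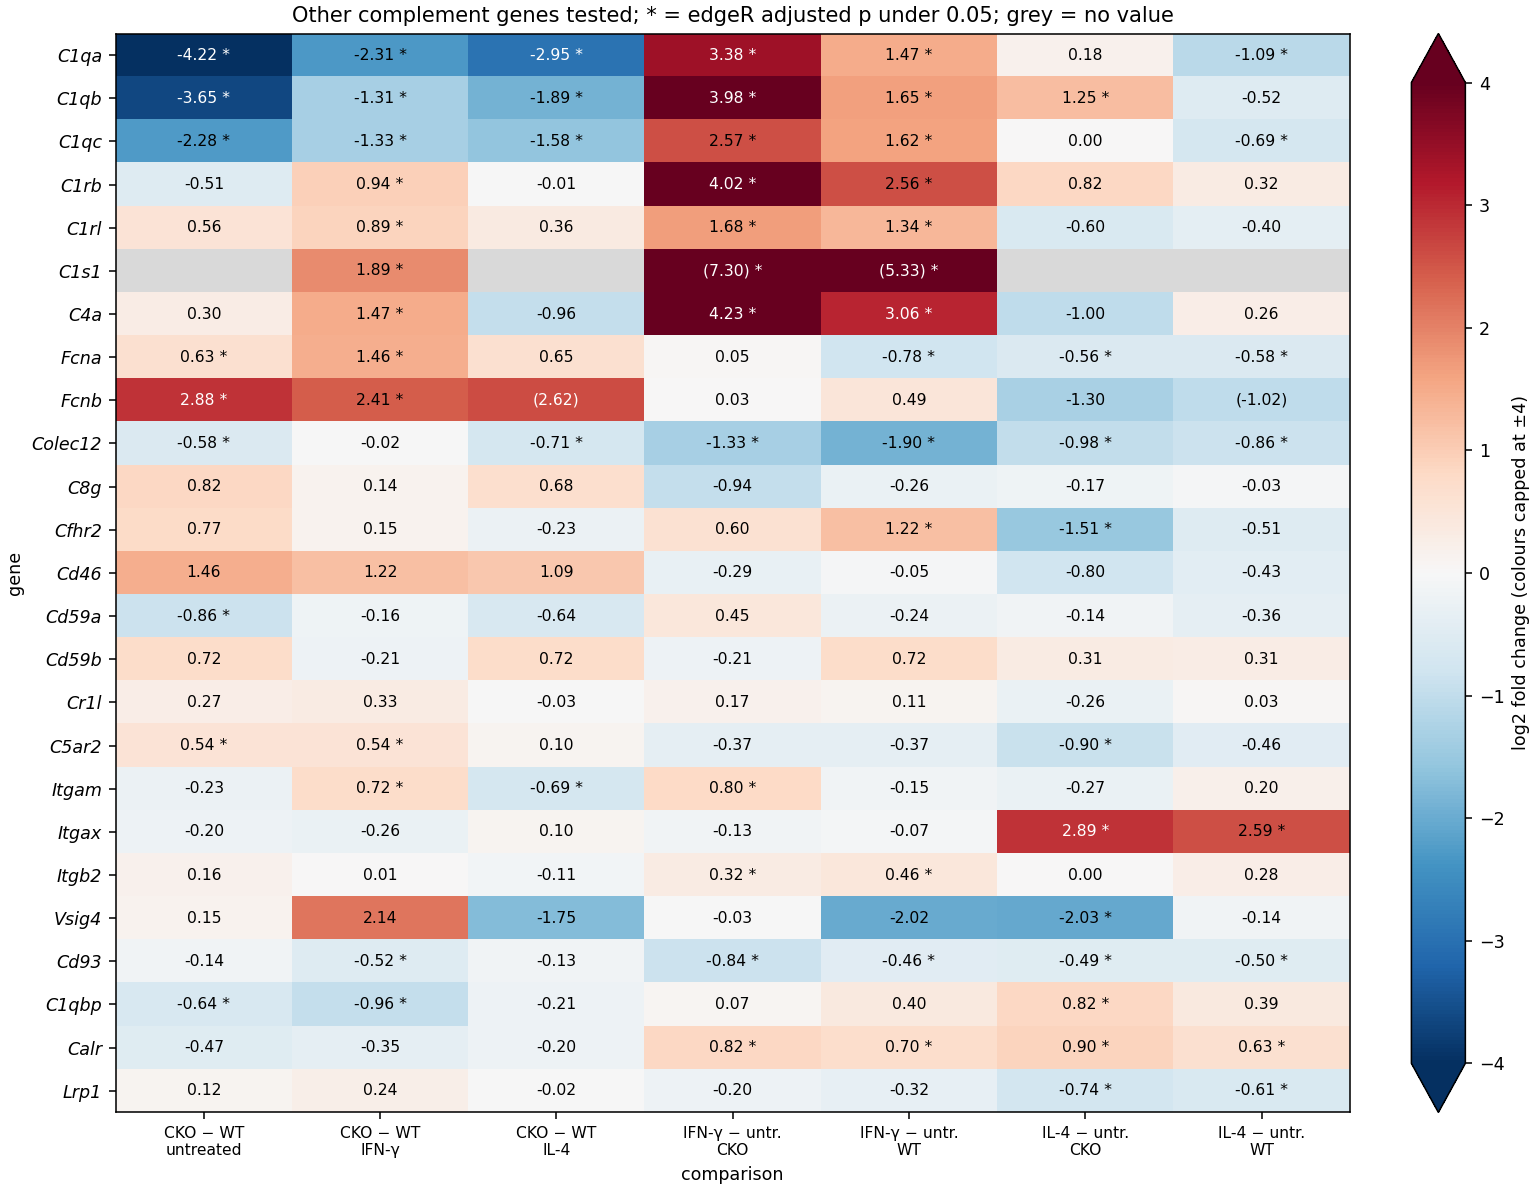
Log2 fold changes of the 25 tested complement genes outside the 9 in 7 comparisons, CKO minus WT and cytokine minus untreated, coloured by size and direction, with an asterisk where the edgeR adjusted p is under 0.05, brackets for counting ratios and grey for no value. The C1q genes are lower in CKO in each treatment (C1qb −3.65 untreated), and Itgax is higher with IL-4 in CKO and in WT cells (2.89 and 2.59).

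The genes whose levels across the 12 libraries were most like those of C3, by Pearson r of log2 CPM among 8634 genes, were Spi1 (0.971), Nupr1 (0.959), Cdk12 (0.952), Cebpb (0.946), Dennd1a (0.941), Ticam2 (0.94), Shisa5 (0.94) and Clec4a1 (0.939). The closest to C4b was Zfp281 (0.99), to C2 Cyba (0.979), to Cfb Rnf34 (0.99), to C1ra Dcp2 (0.993) and to Serping1 Mitd1 (0.97). The closest to Cfp was Lcp1 (0.902), to C3ar1 Npy (0.976) and to C5ar1 Lonrf3 (0.973). Among the 9 genes, C3 was most like C2 (r = 0.893) and least like Cfp (r = −0.542). The 12 libraries share 6 conditions, so these values describe the set of groups and carry no p.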

How the data were processed

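The authors deposited gene counts, as raw whole numbers, for 12 libraries. The submitters' processing notes name HTSeq 0.6.1, TopHat2 2.0.13, CASAVA 1.8.2 and Picard 1.97, and the builds named are GRCh38 and mm10, without a role for each. Per the labels' protocols, libraries came from the RNA Exome kit. The strand setting and annotation release were not given in the sources used here. Where strand was not used, antisense neighbours share reads, and 4.2% of the exon bases of C2 lie antisense to Zbtb12. Library totals ran from 21287725 to 32717379 counts.

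From these counts, edgeR 4.0.16 (R 4.3.3) kept 16292 genes with filterByExpr, scaled by TMM and fitted 6 group means with a quasi-likelihood F test (robust, 6 residual degrees of freedom). P-values were adjusted by Benjamini-Hochberg over all genes in each of 9 comparisons. The SE, which is approximate, divides the absolute log2 fold change by the root of F. Against a group without counts a fold is a bound set by a floor of 3 counts in that group, and from 1 to 3 counts it is a ratio with a 95% exact interval. Replicate pairs differed by more than counting noise (chi-square per gene 5.03 to 90.6). Symbols came from the table, and where a symbol had 2 identifiers the one with more counts was used. Positions came from GENCODE M21, where 40606 identifiers matched with version, and promoter windows from RefSeq. The rule for naming other genes was up to 4 called genes of the wider list per comparison, by smallest adjusted p at a mean log2 CPM of at least 1. The members, lists and motifs were chosen with earlier results of these data known, and the C/EBP motif was added after the C3 window was read. A gene of the wider list and a motif are not reported here. The edgeR step was tested on simulated counts. Alternatives were DESeq2 1.42.0, its size factors in edgeR, no filter, a mean CPM of at least 5, a fold threshold of 2, replicate blocks and leaving out 1 library at a time.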

Additional observations from a re-analysis of the deposited data

Results flagged for a closer look

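For 6 complement genes, 3 of the 9 and 3 of the 25 others tested, the response to IFN-γ differed between the genotypes in the test of the difference itself, each time with a larger response in CKO than in WT cells, where 2.72% of all tested genes differed in either direction. On the log2 scale the CKO response exceeded the WT response by 1.478 for C3, by 1.705 for C1ra and by 0.786 for C3ar1, and by 2.338 for C1qb, 0.95 for Itgam and 1.912 for C1qa among the other complement genes. In the 8 fits that left out 1 library, C1qa lost the call in 7, Itgam in 4 and C3ar1 in 3, while C3, C1ra and C1qb lost it in none. The untreated CKO levels of C1ra, C3ar1, C1qb and C1qa were below those of WT, and that of C3 was above. The IFN-γ and genotype comparisons share libraries, and no cause was tested.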

How the results depend on the processing

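Without any 1 library, C3 kept its direction and its call in the 8 comparisons where it was called; its difference in IL-4 response ran from −0.135 to 0.081 and was 0.008 with no filter on low counts. Of the 9 genes, the number called between CKO and WT cells was 2 with a fold threshold of 2 and 2 to 5 with 1 library left out for untreated cells, and 2 with DESeq2, 2 with no filter and 1 to 2 with 1 library left out for IL-4. For cytokine against untreated it was 4 for IFN-γ in CKO cells at a mean CPM of at least 5. That filter removed C2, Cfb and Serping1, so they were not tested there. For IL-4 in CKO cells the number was 1 with the fold threshold. In WT cells the numbers for IFN-γ and for IL-4 were lower in every fit that left out 1 library than in the main fit. For IL-4 in CKO cells the number was lower in some such fits.

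Log2 fold changes near 0 changed sign. C3ar1 with IL-4 in WT cells was −0.003 with DESeq2 and with its size factors, −0.016 with no filter, −0.014 at a mean CPM of at least 5 and −0.078 to 0.065 with 1 library left out, and C1ra in that comparison −0.195 to 0.089. With 1 library left out, CKO minus WT ran from −0.369 to 0.025 for C2 with IL-4 and from −0.016 to 0.079 for Cfp with IFN-γ, and the difference in response from −0.897 to 1.345 for C4b with IFN-γ and from −0.195 to 0.667 for C5ar1 with IL-4. The cause of these changes was not tested.

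The replicate numbers 1 and 2 recur in each group, and nothing states what they share. Deviations of same-numbered libraries correlated from −0.005 to 0.431 over pairs of groups. With the number as a replicate block, the 9 genes called were 4, 6 and 1 between genotypes (untreated, IFN-γ, IL-4), 7 and 6 with IFN-γ and 3 and 3 with IL-4 in CKO and WT cells, as without it. The difference in IFN-γ response of C5ar1 passed the test with a block within genotype (0.886, edgeR adjusted p = 0.0439) and with no filter (0.828, edgeR adjusted p = 0.000156), and the IL-4 change of C4b in CKO cells with no filter (−1.477, edgeR adjusted p = 0.0145). The calls over all genes were 2927, 2995 and 482 between genotypes (untreated, IFN-γ, IL-4), 4333 and 3935 for IFN-γ and 3664 and 1992 for IL-4 in CKO and WT cells, and 443 and 6 for the differences in IFN-γ and IL-4 response. With the fold threshold they were 861, 1032, 264, 1835, 1752, 1204, 809 and 265 in the first 8 of these. The IL-4 genotype count was 860 with the block, 1129 with no filter and 290 at a mean CPM of at least 5, and the IFN-γ response count 732 with the block, 1080 with the block within genotype and 1019 with no filter. With the block within genotype, IL-4 in WT cells gave 3023. The IL-4 response count was 42 with DESeq2, 291 with no filter, and 26 and 85 with the blocks. With 1 library left out the counts ran from 866 to 5034 for untreated genotypes, 1209 to 1890 with IFN-γ and 128 to 651 with IL-4, from 2675 to 5256 and 2611 to 3121 for IFN-γ and 1725 to 5217 and 898 to 1072 for IL-4 in CKO and WT cells, from 137 to 940 for the IFN-γ response and from 1 to 329 for the IL-4 response. At these depths a group without counts, as for Serping1 and Cfb in untreated WT cells, allows bounds only, and folds against a few counts move with 1 library.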
